A study of Mus musculus with 3 samples.

Results

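The genes described here are 10 secreted or membrane-bound regulators of the extracellular matrix. They are the matrix metalloproteinase genes Mmp2, Mmp9, Mmp11 and Mmp14, the tissue inhibitor genes Timp1, Timp2 and Timp3, the ADAMTS protease genes Adamts1 and Adamts5, and Lox. They were taken by symbol, and all 10 were found among the 32247 gene symbols of the matrix. The series profiled single cells of whole mouse uterus on day 7.5 of pregnancy, a time when stromal cells near the implantation site become decidua, and names 3 such samples. 1 sample, for which the labels give the tissue and day but no genotype, was analysed. The other two, a Prl8a2 iCre mouse with a Sun1-GFP reporter and a Sun1-GFP mouse without Cre, are not analysed here. There is therefore 1 library and no replicate, and every interval below is an exact 95% interval for counting error and leaves out the spread between animals. Intervals of levels and of their ratios also leave out the spread between the cells and clusters that are summed.

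As background, matrix metalloproteinases are zinc enzymes that are made as inactive precursors and cut collagens, laminins and other matrix proteins once a propeptide has been removed. TIMPs bind the active enzymes and block them. Timp2 also has a second role, since it tethers the Mmp2 precursor to the membrane protease encoded by Mmp14, which then activates it. ADAMTS enzymes cut proteoglycans such as versican, and Timp3, which stays bound to the matrix, inhibits several of them. Lox works in the other direction, as a copper enzyme that starts the cross-linking of collagen and elastin. In the uterus these enzymes are studied because the stroma is rebuilt as the decidua forms.

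The genes lie on 8 chromosomes of GRCm38, with coordinates from GENCODE M21 for the deposited identifiers. Mmp2 lies on chromosome 8 at 92827291 to 92853420 on the plus strand, Mmp9 on chromosome 2 at 164940780 to 164955850 (plus), Mmp11 on chromosome 10 at 75923222 to 75936496 (minus) and Mmp14 on chromosome 14 at 54431612 to 54445364 (plus). Timp2 lies on chromosome 11 at 118301069 to 118355740 (minus) and Lox on chromosome 18 at 52516067 to 52529867 (minus). Adamts1 (85793827 to 85803113) and Adamts5 (85856173 to 85901828) are neighbours on the minus strand of chromosome 16, 53.1 kb apart. Timp1 (chromosome X, 20870166 to 20874735, plus) and Timp3 (chromosome 10, 86300372 to 86349506, plus) each lie wholly inside a synapsin gene on the opposite strand. Those host genes had 2 UMIs (Syn1) and 57 UMIs (Syn3) in the kept cells, against 140 for Timp1 and 2129 for Timp3. Mmp11 overlaps Chchd10 on the opposite strand, which had 738 UMIs against 70 for Mmp11. Timp2 holds Cep295nl on its own strand (13 UMIs), and Lox overlaps AC161119.1 on the opposite strand (3 UMIs). The strand setting of the counting was not found in the labels or headers, so the Mmp11 count in particular is uncertain.

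Over 2775 barcodes there were 16848794 UMIs, the molecular tags that each stand for 1 captured transcript. After filtering, 1812 cells in 21 clusters fell into 10 classes that were named from markers, and 1 cluster of 36 cells stayed unnamed. The stromal classes are undifferentiated stroma-like (429 cells) and decidual stroma-like (135). Vascular and lining classes are pericyte-like (35 cells), endothelium-like (67), mesothelium-like (88) and epithelium-like (374). Leukocytes are NK and innate lymphoid-like (313 cells), mononuclear phagocyte-like (270), T cell-like (42) and B cell-like (23). The decidual name rests mostly on Tdo2, which stood at 2889 and 1612 CPM (the UMIs of a gene scaled to the summed UMIs of the cells) in the pair of decidual clusters against 40.3 and 26.9 CPM in the undifferentiated ones. Dio3 (854 and 39.8 against 2.52 and 4.20 CPM) and Wnt4 (218 and 17.4 against 5.04 and 5.88 CPM) were also higher in both, but Bmp2, at 412 CPM in decidual cluster 1, was at 12.4 CPM in decidual cluster 18 against 27.7 and 20.2 CPM in the undifferentiated clusters. The markers of undifferentiated stroma summed to 5254 CPM in decidual and 5314 CPM in undifferentiated cells, although Dpt was at 4.06 and 0 against 95.7 and 507 CPM. The decidual prolactin genes used as markers were near or at 0, with 1.02 CPM of Prl8a2 in decidual cluster 1 and no UMI of Prl3c1 in any stromal cluster. Decidual cells were deeper and held more mitochondrial UMIs than undifferentiated cells, with medians of 7266 against 3330 UMIs per cell and of 11.8% against 4.40%. The part of these gaps in the stromal comparisons below was not tested. The sum of 19 early response and heat shock genes, which dissociation with enzymes can raise, was 4532 CPM in undifferentiated and 1403 CPM in decidual cells.

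In the kept cells the genes differed in depth. Adamts1 had 2549 UMIs, Timp3 2129, Mmp14 2120, Timp2 1321, Mmp2 787 and Lox 526, which gives narrow intervals in the large classes. Timp1 had 140 UMIs, Adamts5 119 and Mmp11 70, and Mmp9 had 3. CPM values are compared below between cell classes for 1 gene and never between genes, since transcripts are counted by their 3′ ends and capture differs between them. NK-like cells, at a median of 5807 UMIs per cell, are given below as a low reference. None of the 10 genes exceeded 3.68 CPM there (14 UMIs of Timp2 among 3809206). Free transcript was not measured in empty droplets, so its part in low values was not tested. B cell-like cells had no UMI of any of the genes, but their 43532 UMIs allow up to 68.9 CPM each.

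**Figure D1:**
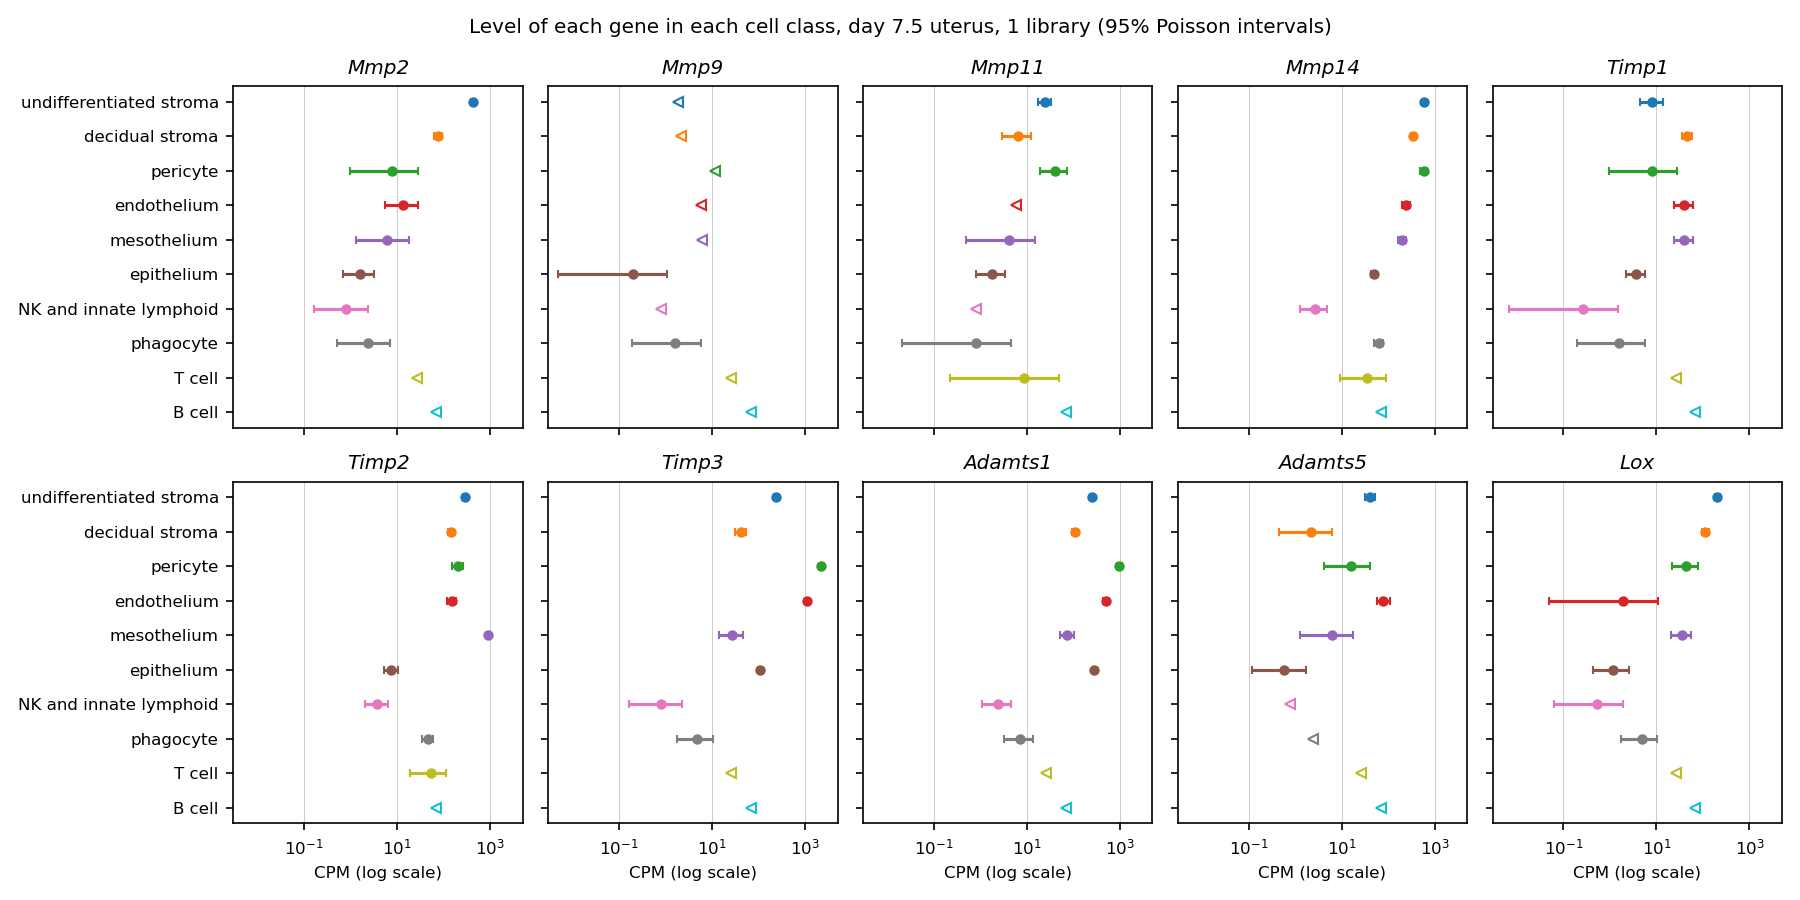
Level of each gene (CPM, log scale) in the 10 cell classes of the 1 library, with 95% Poisson intervals. Open triangles mark classes with no UMI and stand at the limit of 3 counts. Mmp2 and Lox are highest in stroma, Timp2 in mesothelium at 891 CPM, and Timp3 and Adamts1 in pericytes at 2231 and 974 CPM.

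Mmp2, the gelatinase that cuts type IV collagen and denatured collagens, was a transcript of the stroma. Its level was 413 CPM (382 to 446) in undifferentiated stroma-like cells and 75.0 CPM (61.3 to 90.9) in decidual stroma-like cells. The next class, endothelium, held 13.5 CPM (5.43 to 27.8) from 7 UMIs, of which 4 lay in 1 cell. Pericytes (7.86 CPM), mesothelium (6.13), phagocytes (2.40), epithelium (1.57) and NK-like cells (0.788) followed, and from endothelium downward no neighbours in this order differed beyond counting error. Of the 787 Mmp2 UMIs, 760 (96.6%) came from stromal cells, which supplied 10.9% (undifferentiated) and 9.48% (decidual) of all UMIs. At least 1 UMI of Mmp2 was seen in 60.4% of undifferentiated and 32.6% of decidual cells, and in 0.958% of NK-like cells. Thinned shares, here and below, come from cells reduced to 2000 UMIs each, with shallower cells left out, which keeps 321 undifferentiated, 119 decidual and 264 NK-like cells, 30 pericytes, 62 endothelial, 80 mesothelial and 332 epithelial cells. For Mmp2 they were 51.4% in undifferentiated, 11.8% in decidual and 0% in NK-like cells.

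Mmp14, the membrane-anchored protease that activates the Mmp2 precursor and cuts fibrillar collagen itself, reached further than Mmp2. Undifferentiated stroma held 588 CPM (551 to 627) and pericytes 577 CPM (488 to 679), which do not differ beyond counting error. However, 37 of the 147 pericyte UMIs lay in 1 cell, and without that cell the pericyte level was 460 CPM (378 to 554). Decidual stroma followed with 339 CPM (309 to 371), endothelium with 241 (201 to 287) and mesothelium with 200.3 (163 to 244), the last pair again within counting error. Phagocytes (62.4 CPM, 49.4 to 77.9) and epithelium (49.6, 43.6 to 56.1) formed a lower step. The phagocyte signal was mostly of the macrophage-like cluster, at 104 CPM (78.9 to 134) against 34.5 in the monocyte-like and 17.6 in the dendritic-like cluster. NK-like cells were at 2.63 CPM. Mmp14 UMIs occurred in every stromal, vascular and epithelial class, and of the 21 clusters only the B cell-like one had none.

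Mmp11, known as stromelysin 3, and Mmp9, the second gelatinase, were sparse. Mmp11 stood at 39.3 CPM (18.8 to 72.2) in pericytes from 10 UMIs, of which 5 lay in 1 cell, and at 23.9 CPM (16.9 to 32.9) in undifferentiated stroma from 38 UMIs. These levels do not differ beyond counting error, and without that cell the pericyte level was 20.9 CPM (6.79 to 48.8). That cell had 15506 UMIs of all genes, the same total as the leading pericyte-like cell for Mmp14, so it is likely the same cell. Decidual stroma held 6.49 CPM of Mmp11 from 9 UMIs, and endothelium and NK-like cells held none. Mmp9 had 2 UMIs in the monocyte-like cluster and 1 in epithelium. No UMI of Mmp9 was found in either stromal class, where 3 counts would be 1.89 CPM in undifferentiated and 2.16 CPM in decidual cells, so a level above these was not detected in the stroma of this library.

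The 3 inhibitor genes had different leading classes. Timp1 led in decidual stroma, Timp2 in mesothelium and Timp3 in pericytes. Timp1, the inhibitor that is often induced with remodelling, was at 46.2 CPM (35.5 to 58.9) in decidual stroma, 38.8 (23.4 to 60.7) in mesothelium and 38.6 (23.6 to 59.6) in endothelium. These 3 classes do not differ beyond counting error, and all lay above undifferentiated stroma at 8.19 CPM (4.36 to 14.0). When each cell was weighted equally, or when cells were thinned to 2000 UMIs, mesothelium instead of decidual stroma was the highest class. Timp1 was seen in 23.7% of decidual, 19.3% of mesothelial and 14.9% of endothelial cells, against 2.80% of undifferentiated stromal cells and 0.319% of NK-like cells. Thinned, these shares were 7.56%, 10.0%, 6.45%, 2.49% and 0%.

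Timp2, which both inhibits Mmp2 and helps Mmp14 to activate it, was at 891 CPM (810 to 979) in mesothelium, the lining of the outer uterine surface. That was 3.19-fold (2.79 to 3.65) above undifferentiated stroma at 279 CPM (254 to 306), the second class. At least 1 Timp2 UMI was seen in 96.6% of mesothelial cells, against 50.1% of undifferentiated stromal cells, and in 4.47% of NK-like cells. Thinned to 2000 UMIs the shares were 86.2%, 37.1% and 0.758%. Pericytes (200.3 CPM), endothelium (147) and decidual stroma (144) came next, and among these neighbours no step exceeded counting error. Phagocytes held 45.6 CPM (34.6 to 59.1), of which the macrophage-like cluster had 73.5 CPM, and epithelium 7.44 CPM. The mesothelial class also carried Mmp14 at 200.3 CPM but Mmp2 at only 6.13 CPM (1.26 to 17.9), from 3 UMIs. Its summed epithelial markers were 2157 CPM against 195 CPM in undifferentiated stroma, while the 6 mesothelial markers were at 4739 against 385 CPM, with 3 of them at 0 in undifferentiated stroma. The 10 markers of undifferentiated stroma summed to 17731 CPM in mesothelium against 5314 CPM in undifferentiated stroma itself, with Pdgfra at 0 in mesothelium and Dcn among the 10 leading genes of the cluster. The part of these in the Timp2 difference was not tested.

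Timp3, the matrix-bound inhibitor, was at 2231 CPM in pericytes and at 1087 CPM in endothelium, a 2.05-fold step (1.82 to 2.31). All 35 pericyte-like cells held at least 1 Timp3 UMI, as did 83.6% of endothelial cells, 45.5% of undifferentiated stromal cells and 0.958% of NK-like cells. Thinned, the shares were 80.0%, 69.4%, 34.0% and 0%. Undifferentiated stroma followed at 234 CPM (211 to 259), epithelium at 107 (97.8 to 116) and decidual stroma at 41.8 (31.8 to 54.1), each lower than the class before it beyond counting error. Pericytes supplied 26.7% of the Timp3 UMIs from 1.74% of all UMIs, and endothelium 26.4% from 3.54%. Endothelial markers summed to 86.4 CPM in pericytes against 7308 CPM in endothelium, with 9 of 13 at 0 including Pecam1 and Cdh5, and pericyte markers summed to 21.2 CPM in endothelium against 19912 CPM in pericytes. Smooth muscle markers summed to 2400 CPM in the pericyte-like cells.

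Adamts1, a protease of versican and other proteoglycans that is a known progesterone-responsive gene of the ovary, had the same order at its top as Timp3. It was at 974 CPM (857 to 1103) in pericytes, 496 (437 to 561) in endothelium, 283 (268 to 298) in epithelium, 248 (224 to 273) in undifferentiated stroma and 109 (92.2 to 128) in decidual stroma. Each of these steps exceeded counting error, the one from epithelium to undifferentiated stroma only by a ratio of 1.14 (1.02 to 1.28). Epithelial cluster 0 was at 8.40 CPM and epithelial cluster 16 at 406 CPM, a spread that this interval leaves out. 1 pericyte-like cell held 63 of the 248 pericyte UMIs, and without it the level was 838 CPM (721 to 967), still the highest. That cell had 33741 UMIs of all genes, the same total as the leading pericyte-like cell for Timp3 (66 of 568 UMIs), so it is likely the same cell. Without the leading cell pericyte Timp3 was at 2273 CPM (2078 to 2481). Epithelium supplied 56.6% of all Adamts1 UMIs and 34.9% of the UMIs of all kept cells. Its level was 2.42-fold (2.24 to 2.62) that of all other named cells combined, at 283 against 117 CPM. Mesothelium held 73.6 CPM, of which 1 cell gave 18 of 36 UMIs, and 37.8 CPM (22.4 to 59.7) without that cell. In NK-like cells Adamts1 was at 2.36 CPM.

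Adamts1 and Timp3 had alike patterns, with a Pearson correlation of 0.91 over the 21 clusters on the log2(CPM + 5) scale. For that reason the bases before their start sites are shown, from RefSeq on GRCm38.p6, 5′ to 3′ along the gene's strand. Capitals mark matches on either strand to a TATA motif (TATAAA), a GC box (GGGCGG) or an E box (CANNTG). For Timp3 the stretch stops at the annotated gene start.
Adamts1, chr16:85803114-85803363, minus strand: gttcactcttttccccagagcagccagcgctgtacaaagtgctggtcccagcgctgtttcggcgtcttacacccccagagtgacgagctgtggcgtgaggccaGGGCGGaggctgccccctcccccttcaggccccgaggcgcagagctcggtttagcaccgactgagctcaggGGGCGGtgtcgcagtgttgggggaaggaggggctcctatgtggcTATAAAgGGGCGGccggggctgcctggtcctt
Timp3, chr10:86300162-86300371, plus strand: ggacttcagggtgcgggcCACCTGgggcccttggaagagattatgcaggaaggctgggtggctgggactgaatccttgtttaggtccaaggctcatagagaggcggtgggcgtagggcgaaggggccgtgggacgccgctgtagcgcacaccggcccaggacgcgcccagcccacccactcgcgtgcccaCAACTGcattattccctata

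The Adamts1 window of 250 bases held 3 GC boxes, the nearest starting 25 bases before the RefSeq start, and 1 TATA motif starting 32 bases before it. The Timp3 window held 2 E boxes, 232 and 60 bases before its RefSeq start, and 1 GC box 15 bases before it that lies past the stretch shown. Promoter windows were matched for 6 of the 10 genes, the others being Mmp11, Mmp14, Timp1 and Timp2. Mmp2, Mmp9, Adamts5 and Lox were not matched. All 6 held at least 1 GC box, which 32.7% of 32851 promoter windows of the same length hold, and Adamts1 alone held the TATA motif, found in 12.4% of windows. An AP-1 motif (TGANTCA, in 6.75% of windows) and a CRE (TGACGTCA, in 1.55%) had no match in these 6 windows. A missing match says only that those letters are not in the window.

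Adamts5, a protease of aggrecan and versican, was highest in endothelium at 79.1 CPM (56.8 to 107), followed by undifferentiated stroma at 41.0 CPM (31.6 to 52.2), a ratio of 1.93 (1.27 to 2.90). 9 of its 41 endothelial UMIs lay in 1 cell, and the level without that cell was 63.3 CPM (43.3 to 89.3). Pericytes held 15.7 CPM from 4 UMIs and mesothelium 6.13 CPM from 3. Adamts5 had no UMI in 13 of the 21 clusters. Although Adamts1 and Adamts5 are neighbours in the genome, epithelium, which held most Adamts1 UMIs, had 3 UMIs of Adamts5 among 5104761 (0.588 CPM, 0.121 to 1.72).

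Lox, the cross-linking enzyme, followed Mmp2 in being a stromal transcript, with 205 CPM (184 to 229) in undifferentiated and 112 CPM (95.5 to 132) in decidual stroma. Pericytes (43.2 CPM, 21.6 to 77.3) and mesothelium (34.8, 20.2 to 55.6) lay lower and did not differ from each other beyond counting error. Phagocytes (4.80 CPM), endothelium (1.93), epithelium (1.18) and NK-like cells (0.525) lay lower still. Stromal cells supplied 91.6% of the Lox UMIs. At least 1 Lox UMI was found in 40.1% of undifferentiated and 34.1% of decidual cells, which became 31.8% and 16.0% after thinning to 2000 UMIs, against 0.639% and 0.379% of NK-like cells.

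**Figure D2:**
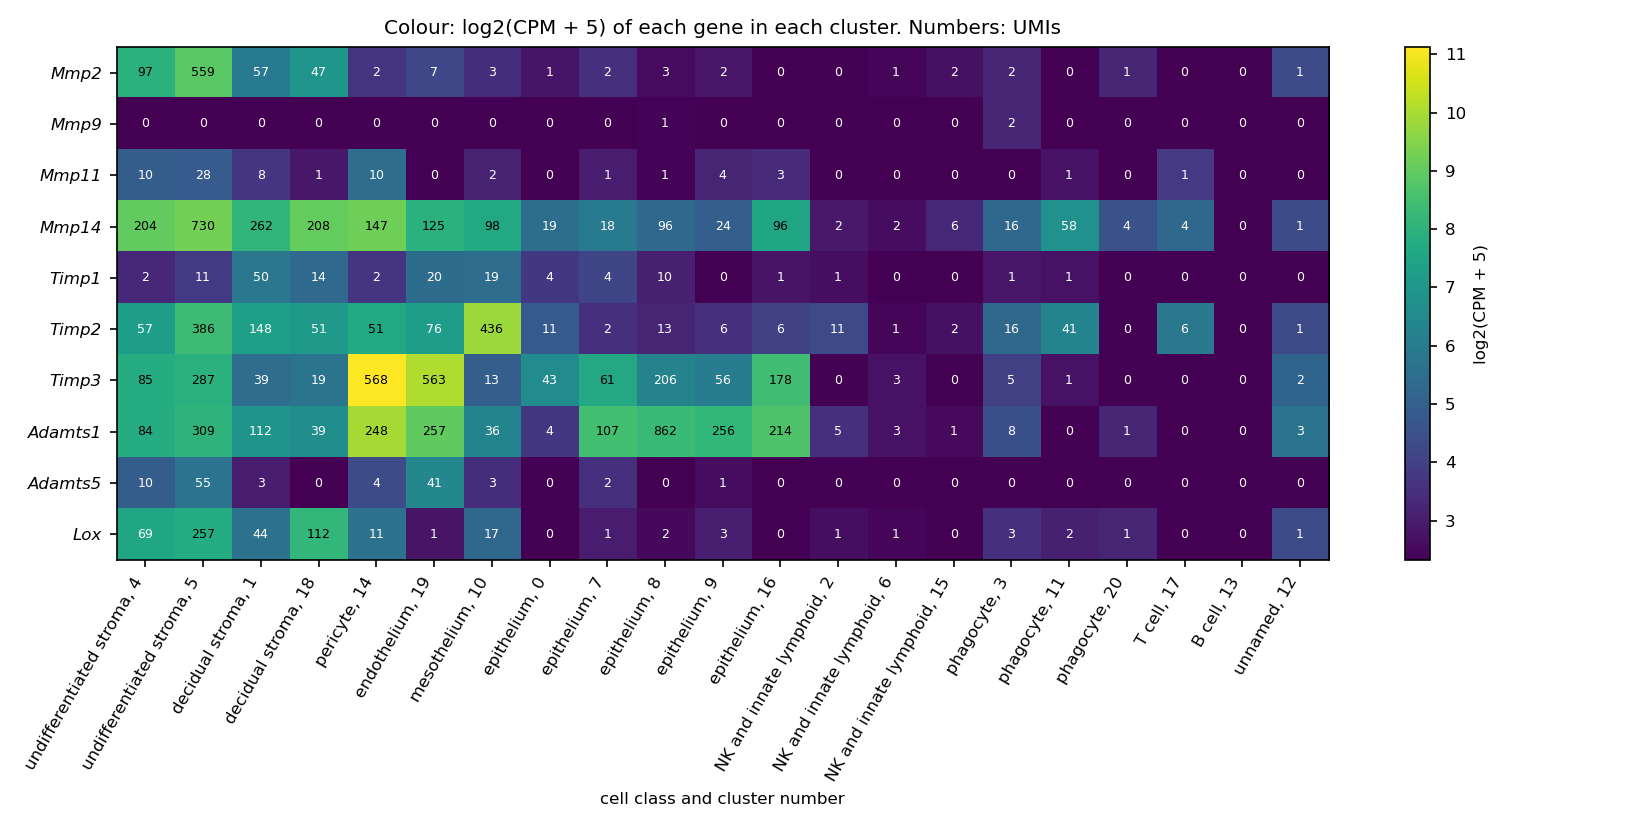
Level of each gene in each of the 21 clusters as log2(CPM + 5), in colour, with the number of UMIs printed in each cell of the grid. Clusters are ordered by class. Lox is highest in decidual cluster 18 and lower in decidual cluster 1 (279 against 44.7 CPM), and Adamts1 is low in epithelial cluster 0 (4 UMIs) but not in the other epithelial clusters.

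Over the 21 clusters the genes fell into patterns that the plot of levels by cluster shows. Mmp2 and Lox had a Pearson correlation of 0.91, Timp3 and Adamts1 also 0.91, Mmp14 and Timp2 0.83 and Mmp2 and Timp2 0.59. All points come from 1 library and differ in depth, so these values describe it and no p-value is given. Among the 12179 genes with at least 50 UMIs, with the 10 genes themselves left out of the ranking, Cped1 (0.96), Tenm3 (0.95) and Tcf23 (0.95) were most like Mmp2, and Vgll3 (0.97), Slit3 (0.96) and Lrp3 (0.95) most like Lox. Nr2f2 (0.91), Qser1 (0.91) and Plscr3 (0.90) were nearest to Mmp14. Aqp1 (0.88) and Pdpn (0.88) were among the nearest to Timp1, and Pcolce (0.92), Rnase4 (0.91) and Lix1l (0.91) were nearest to Timp2. Pls3 and Fam135a were among the 3 nearest genes of both Timp3 (0.91 and 0.89) and Adamts1 (0.92 and 0.94), joined by Slc12a2 (0.89) for Timp3 and Gpr161 (0.92) for Adamts1. Adamts5 was most like Cxcl12 (0.92), Pcdhb17 (0.92) and Pgm5 (0.91), and the sparse Mmp11 most like Ttc26 (0.89), Pth1r (0.89) and Rorb (0.87).

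Where the genes are transcribed was then asked by setting all 564 stromal cells (2973865 UMIs) against the 1212 cells of the other named classes (11583912 UMIs). Genes with 50 or more UMIs in the sides combined were compared, and a gene is called higher or lower here where the ratio was at least 2-fold with an interval that excludes 1. Of the 10 genes 9 could be compared, 7 were higher in stroma and 0 lower. The background for these counts is that 17.6% of 12171 genes were higher and 22.7% lower. The median log2 ratio was 2.38 for the 9 genes and -0.04 for all genes. Mmp2 was 114-fold higher (77.1 to 175), at 256 against 2.24 CPM, and Lox 43.7-fold (31.9 to 61.1), at 162 against 3.71 CPM. Mmp11 was 7.96-fold (4.74 to 13.7), Mmp14 7.65-fold (6.99 to 8.38), Adamts5 5.19-fold (3.56 to 7.62), Timp1 4.76-fold (3.37 to 6.75) and Timp2 3.69-fold higher (3.31 to 4.11). Timp3 (ratio 0.987, 0.886 to 1.10) and Adamts1 (1.06, 0.961 to 1.16) had intervals that include 1, and both led in vascular classes. Most UMIs of the other cells came from epithelium (5104761) and NK-like cells (3809206), so a gene called higher need not lead in stroma. Timp2 was highest in mesothelium (891 CPM), Adamts5 in endothelium (79.1 CPM) and Mmp11 in pericytes (39.3 CPM, within counting error of undifferentiated stroma).

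These stromal ratios depend on how cells are weighted for some of the genes. With the mean of per-cell CPM the Timp1 ratio was 1.91, under 2-fold, and the Lox ratio 21.5. With cells of at most 10% mitochondrial UMIs the ratios of Mmp2 (183), Mmp11 (19.8) and Adamts5 (8.14) were larger.

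Other genes of matrix turnover in the same comparison show which families lean to the stroma. Of 12 other ADAMTS and ADAMTS-like genes 8 were higher in stroma and 1 lower. Adamts3, which trims procollagen, was at 31.9 against 0.432 CPM, and Adamts14, of the same subfamily, was the lower one at 2.02 against 18.1 CPM. Of 6 other inhibitor and clearance genes 5 were higher and 0 lower, with the broad protease inhibitor A2m at 1985 against 15.5 CPM and its receptor Lrp1 at 337 against 25.7 CPM. Of 6 other matrix metalloproteinases 3 were higher, among them Mmp16 (14.9-fold, 8.63 to 27.1) and Mmp19 (14.5-fold, 10.2 to 20.9). The 2 lower ones were the epithelial matrilysin Mmp7, at 8.07 against 442 CPM, and the leukocyte enzyme Mmp25, with 0 against 66 UMIs. Substrates leaned the same way, with 12 of 18 higher and 1 lower, led by Bgn (29.7-fold) and Fbn1 (25.0-fold). Fbln5 was the lower one, at 1.35 against 4.58 CPM. Of 11 collagen processing genes 7 were higher and 1 lower, with Plod2 (13.5-fold) and Bmp1 (10.5-fold) at the top and Tll1 lower at 2.02 against 30.9 CPM.

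Activators were split, with 3 of 6 higher and 1 lower. The proprotein convertase gene Pcsk5 was 32.3-fold higher (27.5 to 38.1) in stroma and Htra3 24.7-fold (18.7 to 33.1), while Pcsk6 was at 1.35 against 48.6 CPM. Of 3 lysyl oxidase-like genes 2 were higher, Loxl3 (5.68-fold, 3.28 to 9.98) and Loxl1 (5.48-fold, 3.93 to 7.67). Of 8 ADAM sheddase genes 3 were higher, among them Adam12 (16.2-fold) and Adam19 (6.97-fold), and 2 lower, Adam8 and Adam33. Cathepsin and plasminogen system genes were more often lower than higher in stroma. Of 9 cathepsin and cystatin genes 1 was higher, Ctsk (21.3-fold, 12.2 to 39.8), and 5 lower, with Ctss at 7.40 against 140 CPM and Ctsh at 11.4 against 87.3 CPM. Of 5 plasminogen system genes 1 was higher, Serpine2 (7.33-fold), and 3 lower, with the urokinase receptor gene Plaur at 3.70 against 69.6 CPM and Plau at 3.36 against 24.5 CPM. Of the 19 early response and heat shock genes 15 were lower in stroma, led by Fosl1 (29.5-fold) and Atf3 (22.9-fold), and 0 higher.

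How the genes differ between decidual and undifferentiated stroma is the comparison closest to the day and tissue. Timp1 was higher in decidual cells, and Mmp2, Timp3, Adamts1 and Adamts5 were lower. Mmp14, Timp2 and Lox were lower by less than 2-fold. Thus of 8 genes compared 1 was higher and 4 lower, where 8.64% of 7450 genes were higher and 19.2% lower. The median log2 ratio was -1.07 for the 8 genes and -0.31 for all genes.

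Timp1 stood at 50.8 and 34.8 CPM in decidual clusters 1 and 18, and at 5.04 and 9.24 CPM in undifferentiated clusters 4 and 5. The clusters of the 2 classes did not overlap, and the class ratio was 5.63 (3.07 to 11.2), from 64 against 13 UMIs. Here and below, the clusters hold the same cells as the class ratio, so clusters that lie apart are no separate support for it. Mmp2 stood at 57.9 and 117 CPM in the decidual clusters and at 244 and 470 CPM in the undifferentiated ones. It was 5.51-fold lower (4.47 to 6.84) in the decidual class, with the clusters again apart.

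Timp3 stood at 39.6 and 47.3 CPM in the decidual and at 214 and 241 CPM in the undifferentiated clusters, with no overlap, and was 5.60-fold lower (4.24 to 7.52) in the decidual class. Adamts1 stood at 114 and 97.0 against 212 and 260 CPM, also apart, and was 2.27-fold lower (1.88 to 2.76). Adamts5 had 3 UMIs in decidual cluster 1, none in cluster 18, and 25.2 and 46.2 CPM in the undifferentiated clusters. The class ratio for Adamts5 rests on 3 against 65 UMIs and was 18.9-fold lower (6.20 to 94.2).

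For the other 3 genes compared, the clusters overlapped. Mmp14 stood at 266 and 517 CPM in the decidual and at 514 and 613 CPM in the undifferentiated clusters, a class difference of 1.74-fold lower (1.55 to 1.94). Timp2 stood at 150.3 and 127 against 144 and 324 CPM, 1.94-fold lower (1.64 to 2.31). Lox stood at 44.7 and 279 against 174 and 216 CPM, 1.83-fold lower (1.504 to 2.22), so that the decidual clusters lay on either side of both undifferentiated ones. Mmp11, with 9 against 38 UMIs, and Mmp9, with none, were under 50 UMIs and not compared.

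**Figure D3:**
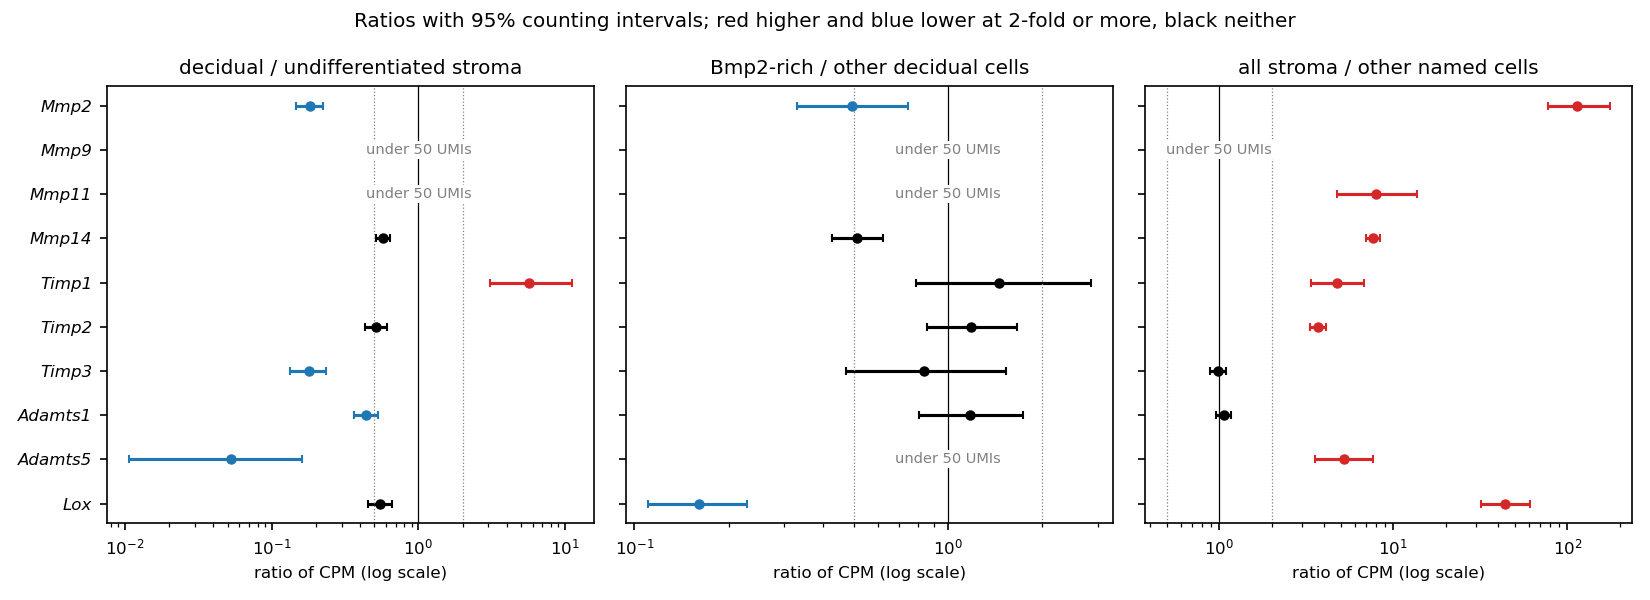
Ratio of CPM (log scale) of each gene in the 3 comparisons with 95% counting intervals. Solid lines mark no difference and dotted lines 2-fold. In the left panel Timp1 lies above 2-fold and Mmp2, Timp3, Adamts1 and Adamts5 lie below it. In the middle panel Lox and Mmp2 lie below 2-fold, and in the right panel 7 genes lie above it.

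Several of these calls depend on which clusters or cells are counted. Against undifferentiated cluster 4 alone, chosen after the values were seen, Adamts1 missed 2-fold (ratio 0.515), Adamts5 had under 50 UMIs and Timp2 had a ratio of 0.999. With cells thinned to 2000 UMIs Adamts1 had a ratio of 0.609, and Timp1 and Adamts5 fell under 50 UMIs. Timp1 was also under 50 UMIs with decidual cluster 18 alone. The Mmp2 ratio of 0.181 became 0.283 with decidual cluster 18 alone and 0.307 against undifferentiated cluster 4 alone, and the Timp3 ratio of 0.178 became 0.288 with at least 1000 genes per cell, where Adamts5 also had under 50 UMIs. Timp2 was lower by 2-fold or more with no mitochondrial limit, with at least 1000 genes per cell (ratio 0.368), at Leiden resolution 2 (0.429), with the listed genes kept in the clustering or with marked doublets kept. Mmp14 passed 2-fold with at most 10% mitochondrial UMIs and new clusters (0.499), and Lox with thinned cells (0.482). Lox also had ratios of 0.218 with decidual cluster 1 alone and 1.36 with cluster 18 alone.

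Around these genes, the lists of other inhibitor and clearance genes, other metalloproteinases and activators each held more lower than higher genes in decidual against undifferentiated stroma. That lean is shared by all genes, of which 1431 of 7450 were lower and 644 higher. Of 6 other inhibitor and clearance genes 1 was higher and 4 lower. A2m was at 4150 against 92.6 CPM, a ratio of 44.8 (38.0 to 53.1), and at 3861 and 4268 CPM in the decidual clusters. Spock2 (11.4-fold lower, 4.99 to 31.9) and Reck (6.55-fold lower, 3.12 to 15.9), whose product is a membrane-bound inhibitor of Mmp2 and Mmp14, were the lowest. Of 3 other matrix metalloproteinases 0 were higher and 2 lower, Mmp19 (10.5-fold, 5.82 to 20.8) and Mmp16 (6.22-fold, 2.96 to 15.1). Of 5 genes in the activator list 0 were higher and 2 lower, the serine protease genes Htra3 at 15.9 against 222 CPM and Htra1 at 7.21 against 99.5 CPM. The convertase genes Pcsk5 (477 against 461 CPM) and Furin (23.8 against 35.3 CPM) were not counted as higher or lower.

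Of 7 other ADAMTS genes 3 were higher and 2 lower. Adamts3 was 7.22-fold (3.997 to 14.1) and Adamts6, whose clusters overlapped, 3.15-fold higher (1.74 to 5.98), while Adamts12 was 3.40-fold (2.03 to 5.97) and Adamts10 2.08-fold lower (1.45 to 3.01). Of 6 sheddase genes 2 were higher and 0 lower, Adam12 at 175 against 6.30 CPM and Adam15 at 136 against 41.6 CPM. Nearly all decidual Adam12 lay in cluster 1, with 242 of 243 UMIs.

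Of 17 matrix substrates compared 6 were higher and 1 lower, where 8.64% of all genes were higher and 19.2% lower. The median log2 ratio was -0.11 for the 17 substrates and -0.31 for all genes, so substrates as a list were not higher. The type IV collagen genes Col4a1 (195 against 290 CPM) and Col4a2 (107 against 170 CPM) were lower by less than 2-fold. For each of these 6 both decidual clusters lay above both undifferentiated ones. The clusters also lay apart for all 14 early response and heat shock genes counted as lower, so this is not particular to substrates. Vcan, which encodes versican, the substrate of Adamts1 and Adamts5, was at 542 against 118 CPM, a ratio of 4.60 (3.91 to 5.42). Eln, which encodes elastin, a substrate of Lox, was at 120 against 26.5 CPM, a ratio of 4.52 (3.21 to 6.51). Lamb1 was the lower one, 3.18-fold (2.54 to 4.01). Of 10 collagen processing genes 1 was higher, Fkbp10 (2.58-fold), and 1 lower, Plod1 (2.96-fold). Of 2 lysyl oxidase-like genes, neither was counted, and the intervals of Loxl1 (ratio 0.799, 0.510 to 1.24) and Loxl2 (0.647, 0.384 to 1.07) include 1. Of 2 plasminogen system genes Plat was lower (2.96-fold), and of 7 cathepsin and cystatin genes Ctsb was lower (2.01-fold). Of 17 early response and heat shock genes 14 were lower and 0 higher, with Egr1 at 58.4 against 376 CPM and Klf6 at 59.1 against 285 CPM. The part of this shift in the protease genes was not tested.

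**Figure D4:**
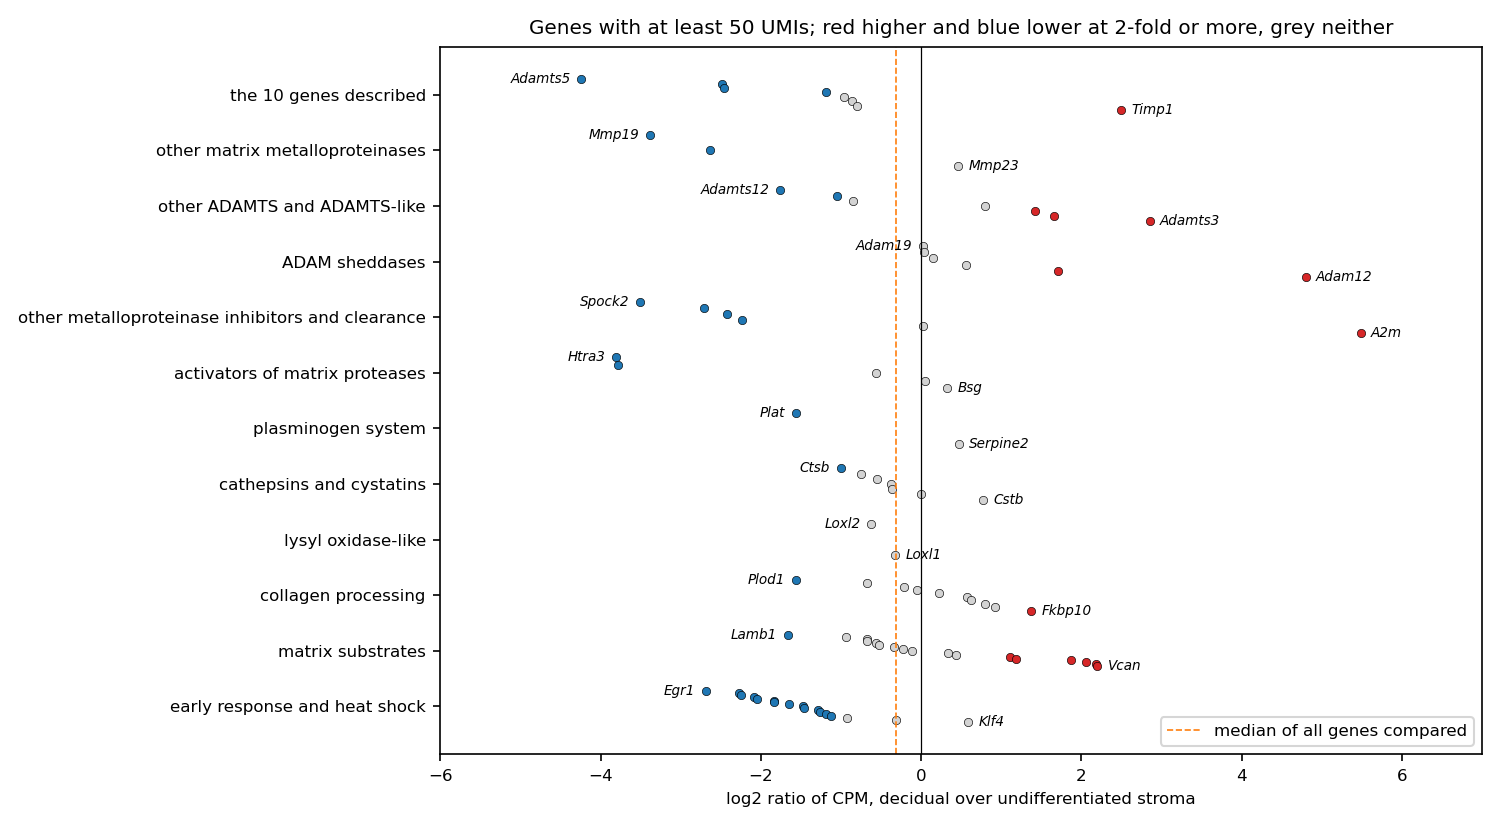
Log2 ratio of CPM, decidual over undifferentiated stroma, of the genes with at least 50 UMIs in each list, 1 point per gene. Red points are higher and blue points lower at 2-fold or more, grey points neither, and the dashed line is the median of all genes compared (-0.31). The lowest and the highest gene of each list are named. A2m, Adam12 and Adamts3 lie far to the right, and Adamts5 and the Htra genes far to the left.

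Within the decidua, Lox had the largest ratio between the pair of clusters among the 7 of the 10 genes that could be compared. Cluster 1, which held most Bmp2 (412 against 12.4 CPM), was set against cluster 18. Lox stood at 44.7 CPM (32.5 to 59.98) in cluster 1 and at 279 CPM (229 to 335) in cluster 18, 6.24-fold lower in cluster 1 (4.36 to 9.05). Mmp2 stood at 57.9 CPM (43.8 to 75.0) and 117 CPM (85.9 to 156), 2.02-fold lower (1.34 to 3.03). Mmp14 was at 266 against 517 CPM, 1.94-fold lower (1.61 to 2.34), just under the limit. Timp1 (ratio 1.46, 0.793 to 2.86), Timp2 (1.18, 0.856 to 1.66), Timp3 (0.838, 0.473 to 1.54) and Adamts1 (1.17, 0.808 to 1.73) had intervals that include 1. Of 7 genes compared 0 were higher and 2 lower, where 22.4% of 4095 genes were higher and 5.59% lower, and the median log2 ratio was -0.26 for the 7 genes and 0.34 for all genes. The median mitochondrial share was 13.9% in cluster 18 and 9.83% in cluster 1, and median depth was 5669 and 9510 UMIs per cell. The part of these gaps in the differences was not tested. With no limit on mitochondrial share, and clusters formed anew, Mmp2 was no longer lower (ratio 0.777) and Timp1 was counted as higher. With at least 1000 genes per cell Mmp14 and Timp3 (ratio 0.379) were also lower. Lox was lower at each of these settings.

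Genes of the lists around them divided the same clusters. Adam12 was at 246 against 2.49 CPM, with 242 UMIs in cluster 1 against 1 in cluster 18, a ratio of 98.8 (17.6 to 3918). Eln was 3.83-fold higher (2.28 to 6.87) in cluster 1, while Lamb1 (3.19-fold, 2.11 to 4.86) and Col4a2 (2.20-fold, 1.57 to 3.08) were lower there, which is 1 of 15 substrates higher and 2 lower. The protease inhibitor genes Serpine2 (2.80-fold lower, 2.23 to 3.53) and Cstb (2.65-fold higher, 1.73 to 4.21) differed as well. Other matrix metalloproteinases, ADAMTS genes, inhibitors, activators and collagen processing genes had none counted, of 1, 4, 2, 2 and 8 compared. Of 11 early response genes 2 were higher in cluster 1, Fos and Klf4, and 2 lower, Hspa1b and Zfp36.

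The pair of undifferentiated clusters also differed in some of the genes. Cluster 5 (246 cells, median 4697 UMIs) held more Timp2 than cluster 4 (183 cells, median 1883 UMIs), at 324 against 144 CPM (2.26-fold, 1.71 to 3.04). Mmp2 was at 470 against 244 CPM (1.92-fold, 1.55 to 2.41). Mmp14 differed by 1.19-fold (1.02 to 1.40), and Timp1, Timp3, Adamts1, Adamts5, Lox and Mmp11 had intervals that include 1. Cluster 4 had the higher mitochondrial share, at a median of 7.55% against 3.31%.

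Whether the activation partners occur in the same cells was examined in the cells with at least 2000 UMIs, each thinned to that number. At least 1 UMI of each of Mmp2, Mmp14 and Timp2 was seen together in 52 of 321 undifferentiated cells (16.2%, 12.3 to 20.7, Clopper-Pearson) and in 2 of 119 decidual cells (1.68%, 0.204 to 5.94). Within undifferentiated stroma, Mmp2 was seen in 54.0% (47.1 to 60.9) of cells with Mmp14 and in 46.4% (36.8 to 56.1) of cells without it. The share was 57.1% (47.7 to 66.2) with Timp2 and 48.0% (41.0 to 55.1) without, and 57.8% (47.7 to 67.6) with Lox and 48.4% (41.6 to 55.2) without. Each share was higher with the other transcript, and all 3 pairs of intervals overlap. Overlap in cells of 1 library does not decide whether these transcripts are linked from cell to cell. The class pools clusters 5 and 4, which differ in both Mmp2 (470 against 244 CPM) and Timp2 (324 against 144 CPM). The part of this pooling in the shares was not tested. The share with all 3 genes also depends on their single thinned shares. In undifferentiated against decidual cells these were 51.4% and 11.8% for Mmp2, 65.7% and 46.2% for Mmp14, and 37.1% and 24.4% for Timp2.

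In the epithelium, Adamts1 (1443 UMIs) and Timp3 (544) had the most UMIs of the 10 genes, and their levels differed between clusters. The clusters set apart here were chosen after their values were seen. Cluster 0, led by the gland protease genes Prss28 and Prss29, had 4 Adamts1 UMIs (8.40 CPM), against 283 to 406 CPM in the other 4 epithelial clusters. Together these held 1439 UMIs (311 CPM), so cluster 0 was 37.0-fold lower (14.4 to 136). Mmp7 followed the same line, at 18.9 CPM in cluster 0 against 1094 CPM in the others. Timp2 was the other way round at low level, at 23.1 against 5.83 CPM (3.96-fold, 1.77 to 8.25), and Timp3 (90.3 against 108 CPM) and Mmp14 (39.9 against 50.6 CPM) had ratios whose intervals include 1. The summed early response genes were at 13419 CPM in cluster 0 and between 10694 and 19644 CPM in the other clusters. Whether early response has a part in the Adamts1 difference was not tested.

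Epithelial cluster 16 (36 cells), led by Lcn2, Scx and Cftr, held more Timp3 and Mmp14 than the rest of the epithelium. Timp3 was at 338 against 79.9 CPM, a ratio of 4.23 (3.51 to 5.07), and Mmp14 at 182 against 34.3 CPM, a ratio of 5.31 (4.08 to 6.89). Adamts1 was at 406 against 268 CPM (1.51-fold, 1.30 to 1.75). Its median mitochondrial share was 10.9%, which lay between the 3.80% of cluster 8 and the 16.8% of cluster 7.

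To set Adamts1 beside the early response genes within a class, cells were divided at the median of their summed early response UMIs after thinning to 2000 UMIs. Adamts1 was seen in 35.0% (27.6 to 42.9) of epithelial cells above and 26.2% (19.8 to 33.4) at or below the median, and in 26.0% (19.2 to 33.6) and 19.8% (14.0 to 26.6) of undifferentiated stromal cells. In pericytes the shares were 80.0% (51.9 to 95.7) and 53.3% (26.6 to 78.7), and in endothelium 58.1% (39.1 to 75.5) and 51.6% (33.1 to 69.8). The share was higher above the median in all 4 classes, and each pair of intervals overlaps. Overlap in cells of the same library does not decide whether Adamts1 and the early response genes are linked from cell to cell. The intervals take cells as independent, although all come from 1 library. Epithelium also pools cluster 0, at 8.40 CPM of Adamts1, with clusters that together were at 311 CPM. The part of this mix of clusters in the epithelial shares was not tested. The part of dissociation in the Adamts1 levels was not tested.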

How the data were processed

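Uterine cells dissociated with trypsin went into droplets for 3′ libraries, per the labels' protocols. Per the file headers, the deposited values are UMI counts from Cell Ranger 4.0.0. The submitters' processing notes name genome mm10, while annotation release, cell calling and strand setting were not given in the sources used here. Cells with at least 500 genes and at most 20% mitochondrial UMIs were kept, and Scrublet removed 13 marked doublets (0.712% of 1825, which leaves undetected doublets possible). Scanpy 1.11.5 (2000 variable genes without the listed genes, 30 components, 15 neighbours, Leiden resolution 1) gave the clusters, named from 138 markers in 19 sets. These names may differ from the authors' own. Counts were summed per class or cluster (CPM, Poisson intervals), ratios had conditional binomial intervals and shares Clopper-Pearson intervals. With 1 library no test was made. The size rule was run on simulated Poisson counts, which follow the model that the intervals assume. Clumping of UMIs in single cells was not simulated, so that run cannot show how the rule behaves under it. All 10 genes are named; of each list, the 2 highest and 2 lowest genes that met the size rule, and the 3 genes most correlated with each gene (pseudocount 5 CPM), of which 1 is not reported here. The genes and 11 lists (140 of 141 genes in the matrix) were chosen with earlier results of these data known, and no pattern here is independent support for them.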

Additional observations from a re-analysis of the deposited data

How the results depend on the processing

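No ratio counted as 2-fold reversed at any setting. Of the recomputed counts of higher or lower genes 61 stayed within 1.5 times their first value and 9 moved. Sizes were less steady: of the recomputed ratios 205 were counted as the same and 60 as moved. For the recomputed CPM values these numbers were 79 and 11. The single gene counted as higher in decidual stroma (Timp1) became 0 with thinned cells and 0 with decidual cluster 18 alone. The 4 lower genes became 2 against undifferentiated cluster 4 alone. For the Bmp2-rich cluster the 0 higher genes became 1 with no mitochondrial limit, and the 2 lower ones became 1 with no mitochondrial limit, 4 with at least 1000 genes per cell, 1 with the mean of per-cell CPM and 0 with thinned cells, where 1 gene could be compared. The 7 genes higher in stroma became 4 with thinned cells, of 6 compared. Thinning leaves fewer UMIs and so fewer genes to compare; otherwise the cause was not tested. With at most 10% mitochondrial UMIs and new clusters there was 1 decidual cluster of 48 cells, so no value within the decidua. The highest class of a gene stayed the same in 82 of 90 recomputations. For Mmp11 it moved from pericytes to undifferentiated stroma with at most 10% mitochondrial UMIs (11.1 CPM in pericytes) and with thinned cells. Settings with single stromal clusters, and that with classes as named and at most 10% mitochondrial UMIs, were chosen after seeing the data. Depth limits Mmp9, Mmp11, Timp1 and Adamts5 most. No paired analysis was possible because there is 1 library.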

Other observations

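Matrix genes outside the set of 10 peaked in cell groups that the comparisons above did not set apart. They are given as values, were chosen after the values were seen, and were not tested. The pericyte-like cluster was the highest of the 21 clusters for the basement membrane collagen genes Col4a1 (4572 CPM) and Col4a2 (1740 CPM), for Postn (1080 CPM), for the cross-linking enzyme gene Loxl2 (385 CPM) and for Adamts12 (204 CPM), Adamts4 (153 CPM) and Mmp17 (82.5 CPM). Mesothelium was highest for Pcolce (446 CPM), which enhances the trimming of procollagen, for Adam33 (247 CPM) and for Adamtsl1 (174 CPM). Among leukocytes, the macrophage-like cluster was highest for Mmp25 (100.3 CPM) and Mmp12 (80.6 CPM), and an NK-like cluster for Adamts14 (102 CPM), while epithelial cluster 7 was highest for Adamts9 (725 CPM).

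A pair of ADAMTS genes under the limit of 50 UMIs was found on 1 side of the stroma only. Adamts18 had 36 UMIs in decidual and none in undifferentiated cells, or 13.7-fold higher with 3 counts taken for the undifferentiated class. This value leaves out the counting error of the 36 UMIs and is not a lower limit. Adamts19 had 31 UMIs in undifferentiated and none in decidual cells, or 9.03-fold lower on the same footing.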
